A study of Mus musculus with 7 samples.

Results

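The broadest stretches of accessible chromatin in freshly isolated muscle stem cells (MuSCs) were taken from 7 ATAC-seq libraries, an assay in which the Tn5 transposase inserts adaptors where DNA is not held in nucleosomes. Broad peaks of the 7 libraries were merged on chromosomes 1 to 19 wherever they overlapped, and regions with a peak in all 7 libraries were ranked by the median over libraries of the longest peak in the region. A median of at least 4000 bp was asked for first, and only 8 regions reached it, so the 200 longest of 52187 regions called in all 7 libraries were kept (93201 regions were called in any library). These 200 are called broad domains here. The domains were thus chosen by their length, so their lengths are given as a description and were not tested against other regions.

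Each library was made from 5000 MuSCs sorted from hindlimb muscle of male mice aged 5 to 6 weeks. There were 4 Nedd4L-cKO libraries and 3 Nedd4L-WT libraries. The cKO mice were Nedd4L fl/fl Pax7 cre/+ on a C57BL/6 background, in which Cre removes exon 15 of Nedd4l, a gene for an E3 ubiquitin ligase, in cells that express Pax7. The gene is still transcribed after the deletion, Pax7-Cre also acts in the embryonic progenitors from which MuSCs and muscle fibers come, and the labels do not say which alleles the Nedd4L-WT mice carried. The removed exon was not analysed here, so the accessibility data give no check of the genotype labels. The question put by the study was whether loss of Nedd4L changes chromatin accessibility in MuSCs. The libraries kept 14.4 to 20.1 M (mega) tags, and 1 library, Nedd4L-WT replicate 3, came from another sequencing lane and had the fewest. A listed gene was counted as open in a library with a peak within 1 kb of any of its start sites. By this count, 8 of 8 MuSC markers (Pax7, Myf5, Myod1, Vcam1, Itga7, Calcr, Cdh15 and Sdc4) were open in all 7 libraries. Among 12 immune markers, 11 were open in none. Of 12 endothelial markers, 6 were open in all 7 libraries, and 5, among them Pecam1 and Cdh5, in none. Open in all 7 libraries were also 5 of 10 fibro-adipogenic and tendon genes (3, Pdgfra, Ly6a and Pi16, in none), 5 of 9 pericyte, smooth muscle and glial genes (1, Sox10, in none) and 8 of 16 myofiber genes (3, Myh7, Mylpf and Myl1, in none).

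MuSCs are the resident stem cells of skeletal muscle. They rest in quiescence until injury, and enzymatic isolation itself is known to start an early response with immediate early genes. Accessible chromatin at most active genes is a short stretch around the start site, where CpG-rich promoters stay free of nucleosomes, and at enhancers it is usually shorter still. Broad accessible or active domains have been described at genes for transcription factors and signalling proteins in many cell types. In a pool of cells, 1 wide open stretch in each cell and different short stretches in different cells cannot be told apart.

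The bases just before the start site show what kind of promoter the domains covered. They are printed for the 3 longest domains over the single promoter of a gene with 1 entry in the RefSeq table that could be read here (Col5a1, Klf13 and Notch1), for 2 domains over stimulus-responsive genes (Nr4a3 and Nr1d1), and for Itgam, an immune gene with no accessible region at its start site in these libraries. Each sequence is the 250 bases before the start site, read 5′ to 3′ on the gene's strand from RefSeq on GRCm38.p6, with each CpG in capitals.
Col5a1: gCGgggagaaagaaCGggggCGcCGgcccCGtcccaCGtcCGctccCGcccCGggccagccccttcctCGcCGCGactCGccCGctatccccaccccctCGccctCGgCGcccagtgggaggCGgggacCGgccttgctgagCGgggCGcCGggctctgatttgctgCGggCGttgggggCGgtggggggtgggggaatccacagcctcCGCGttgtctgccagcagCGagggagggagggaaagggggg
Klf13: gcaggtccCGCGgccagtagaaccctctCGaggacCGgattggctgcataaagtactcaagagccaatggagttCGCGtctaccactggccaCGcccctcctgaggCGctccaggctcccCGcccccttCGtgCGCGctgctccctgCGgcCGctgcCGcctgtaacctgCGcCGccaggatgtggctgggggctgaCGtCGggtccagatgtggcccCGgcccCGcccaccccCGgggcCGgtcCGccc
Notch1: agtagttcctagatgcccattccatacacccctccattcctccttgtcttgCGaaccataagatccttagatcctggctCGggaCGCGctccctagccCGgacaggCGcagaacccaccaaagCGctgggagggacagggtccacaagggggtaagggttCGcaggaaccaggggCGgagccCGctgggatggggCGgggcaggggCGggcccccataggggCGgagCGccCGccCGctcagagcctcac
Nr4a3: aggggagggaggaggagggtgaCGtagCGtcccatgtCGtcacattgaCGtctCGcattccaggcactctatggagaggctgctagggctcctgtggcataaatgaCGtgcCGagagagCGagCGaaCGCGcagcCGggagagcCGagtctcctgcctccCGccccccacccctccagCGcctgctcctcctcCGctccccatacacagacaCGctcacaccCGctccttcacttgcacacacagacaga
Nr1d1: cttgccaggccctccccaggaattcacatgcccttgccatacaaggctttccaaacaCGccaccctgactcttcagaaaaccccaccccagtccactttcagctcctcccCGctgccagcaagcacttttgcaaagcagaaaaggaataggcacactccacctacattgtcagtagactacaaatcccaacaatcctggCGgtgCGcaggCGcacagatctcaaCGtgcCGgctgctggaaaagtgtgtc
Itgam: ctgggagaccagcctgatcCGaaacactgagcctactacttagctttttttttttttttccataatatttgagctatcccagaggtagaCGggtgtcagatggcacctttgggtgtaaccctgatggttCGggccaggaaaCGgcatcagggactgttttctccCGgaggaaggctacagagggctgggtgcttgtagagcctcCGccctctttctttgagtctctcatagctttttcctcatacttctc

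These windows lay at chr2:27886175-27886424 (plus strand), chr7:63938916-63939165 (minus strand), chr2:26503823-26504072 (minus strand), chr4:48045055-48045304 (plus strand), chr11:98775378-98775627 (minus strand) and chr7:128062390-128062639 (plus strand). Col5a1 had 28 CpGs in the 250 bases and Klf13 had 24. Nr4a3 had 18 and Notch1 had 16. Nr1d1 had only 7, close to the 6 of Itgam, although its domain had the highest pileup of any domain at a promoter. A CpG-rich start was therefore common but not shared by all. Over the 300 bases from 250 before to 50 after the start, 152 promoter entries of 117 genes in the domains had a median of 22 CpGs (interquartile range 15 to 31, range 2 to 60). Promoters in the other regions open in all 7 libraries had the same median of 22, promoters outside such regions had 3, and all 20085 promoters had 14. Vav2, a guanine nucleotide exchange factor, had the fewest with 2 CpGs, and Pacs2 the most with 60. The GC box GGGCGG, searched on both strands, was found in 64.5% of the domain promoters, in 67.9% of promoters of the other regions and in 47.0% of all promoters of the same length. The GC box, the E-box and the cAMP response element each hold a CpG, so they are not independent of the CpG count. The AP-1 site TGANTCA, in which N is any base, was found in 7.24%, 4.57% and 7.06%, and the TATA box TATAAA in 5.92%, 6.23% and 12.7%. The CCAAT box CCAAT was found in 33.6%, 37.5% and 38.1%, the canonical E-box CACGTG in 8.55%, 10.1% and 7.89%, and the cAMP response element TGACGTCA in 2.63%, 3.31% and 2.30%. These letters are a description of the windows and not evidence of binding.

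The domains had median lengths of 2860 to 5707 bp, with a median of 3115.5 bp, against 971 bp over all 52187 regions and 1296 bp over the 12330 other regions with a coding start site within 1 kb. The word broad is thus relative to these peak calls. The last domains kept were at Tfap4 (2860 bp), at Gpsm1 (2864 bp) and at Bcl7a and near Irf1 (2869 bp each). The first left out were near Psd2 (2856 bp), within Erfe and Ilkap (2852 bp) and near N6amt1 (2852 bp). No gap in length separated the domains from the next 200 longest regions, whose median was 2706.5 bp. Every chromosome held domains, from 5 on chromosome 16 to 19 on chromosome 7, or 2.45 (chromosome 5) to 6.35 (chromosome 18) per 1000 regions.

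The longest domain was chr17:39843050-39848771 (mm10), over Rn18s-rs5 and AY036118, a copy of the ribosomal RNA repeat far from any coding gene. Its lengths were 5710, 5707, 5706 and 5722 bp in the Nedd4L-cKO libraries and 5700, 5704 and 5709 bp in the Nedd4L-WT libraries, a range of a few bases. Its pileup, the mean number of extended tags over the peak in the authors' calls, had a median of 248, while the next highest domain, at Nr1d1, had 92.2. Ribosomal RNA genes are present in many near-identical copies of which the assembly holds few, so reads of several copies can fall on this one place. Its part in the pileup here was not tested, and no list of artifact-prone regions was used.

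The domain next in length, chr17:23673420-23677640, covered 3 start sites, those of Hcfc1r1, Thoc6 and Tnfrsf12a, the last of which encodes the receptor for the cytokine TWEAK. Its lengths were 4203, 4195, 4177 and 4180 bp in Nedd4L-cKO and 4159, 4125 and 4216 bp in Nedd4L-WT, and it was 1 peak in every library. Col5a1, which encodes a chain of type V collagen, had a domain at chr2:27885588-27889724. Its lengths were 4096, 3946, 4134 and 4051 bp in Nedd4L-cKO and 4093, 4137 and 3951 bp in Nedd4L-WT. At both the values of the genotypes overlapped and every library was close to 4 kb.

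Notch1, a receptor whose signalling maintains MuSC quiescence, had a domain at chr2:26500055-26504331 with lengths of 4102, 2315, 3950 and 4248 bp in Nedd4L-cKO and 4234, 4014 and 2313 bp in Nedd4L-WT. In 1 library of each genotype, Nedd4L-cKO replicate 2 and Nedd4L-WT replicate 3, the caller had ended the peak early and placed the rest in another peak. The domain within Plec, chr15:76204075-76208515, was divided in this way in 2 Nedd4L-cKO libraries. Plec encodes plectin, a linker of the cytoskeleton, and the lengths were 4154, 1994, 2141 and 4136 bp in Nedd4L-cKO and 4397, 4153 and 4152 bp in Nedd4L-WT. The domain within Aopep, an aminopeptidase gene, at chr13:63239964-63244212, was short in 3 libraries of both genotypes, with 4138, 2051, 1890 and 4197 bp in Nedd4L-cKO and 2230, 3893 and 4227 bp in Nedd4L-WT. At these 3 loci the lengths fell into a long and a short class rather than around a mean.

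**Figure D1:**
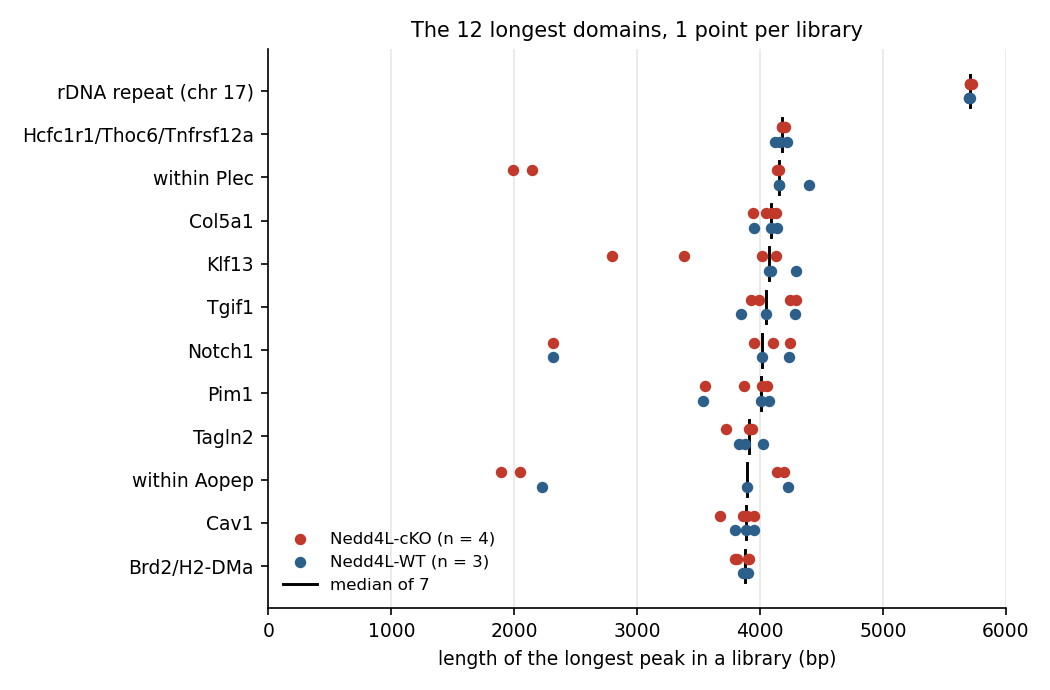
Length in bp of the longest peak in each library (1 point per library, Nedd4L-cKO in red, Nedd4L-WT in blue) for the 12 longest domains, with the median of the 7 libraries as a black line. Most points lie close to the median, and the points at about 2 kb at Plec, Notch1 and Aopep are libraries in which the domain was called as more than 1 peak.

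The others of the 12 longest were at the start sites of genes with varied roles. They were Klf13, a Krüppel-like transcription factor (chr7:63936324-63940623, 4073 bp), Tgif1, a homeobox repressor of TGF-β signalling (chr17:70849030-70853333, 4051 bp), and Pim1, a serine/threonine kinase (chr17:29489092-29493169, 4011 bp). Tagln2, an actin-binding protein (chr1:172499759-172503825), had 3914 bp, and Cav1, the main coat protein of caveolae (chr6:17305927-17309890), had 3889 bp. A domain at the shared promoter of Brd2, a bromodomain protein, and H2-DMa (chr17:34119009-34122930) had 3879 bp. Pim1 ranged from 3540 to 4073 bp over the libraries, Cav1 from 3675 to 3950 bp and Brd2/H2-DMa from 3794 to 3909 bp. Klf13 was shortest in Nedd4L-cKO, with 3384 and 2794 bp in replicates 1 and 2 and 4016 and 4127 bp in replicates 3 and 4, against 4092, 4073 and 4292 bp in Nedd4L-WT, so the genotypes overlapped there too.

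Of the 200 domains, 125 were 1 peak in every library, 59 were in more than 1 peak in 1 or 2 libraries, and 16 in 3 or more. Zmiz1, a transcriptional coactivator gene, was in more than 1 peak in 6 of 7 libraries, with lengths of 4157, 2949, 2857 and 2874 bp in Nedd4L-cKO and 2991, 2884 and 2896 bp in Nedd4L-WT. Spry2, a feedback inhibitor of receptor tyrosine kinase signalling, was so in 5 libraries, with 4178, 1665, 2785 and 3046 bp in Nedd4L-cKO and 4127, 3041 and 3059 bp in Nedd4L-WT. In 73 domains the longest library was at least 1.5 times the shortest. The median coefficient of variation of length over the 7 libraries was 7.21%, against 15.7% over all regions, 6.56% in the next 200 longest and 8.61% in other promoter regions. Division into more than 1 peak in at least 1 library was seen in 75 of the 200 domains (37.5%) and 70 of the next 200 longest, against 5.39% of all regions and 4.70% of other promoter regions. Neither measure set the domains apart from the regions next in length, and no difference was tested. The smallest space between neighbouring peaks of a library was 605 bp in all 7 libraries, so a domain with an interior stretch longer than that without signal was written as separate peaks.

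The number of domains in more than 1 peak differed between libraries. It was 23, 25, 20 and 9 in the Nedd4L-cKO libraries and 13, 13 and 38 in the Nedd4L-WT libraries. The highest number was in the library from the other lane, which kept the fewest tags (14.4 M), and the lowest in Nedd4L-cKO replicate 4, which kept the most (20.1 M). The median domain length followed the same ends, from 2991.5 bp in Nedd4L-WT replicate 3 to 3155.5 bp in Nedd4L-cKO replicate 4. The part of tag number and lane in these lengths was not tested, and the lane cannot be told apart from that 1 library.

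**Figure D2:**
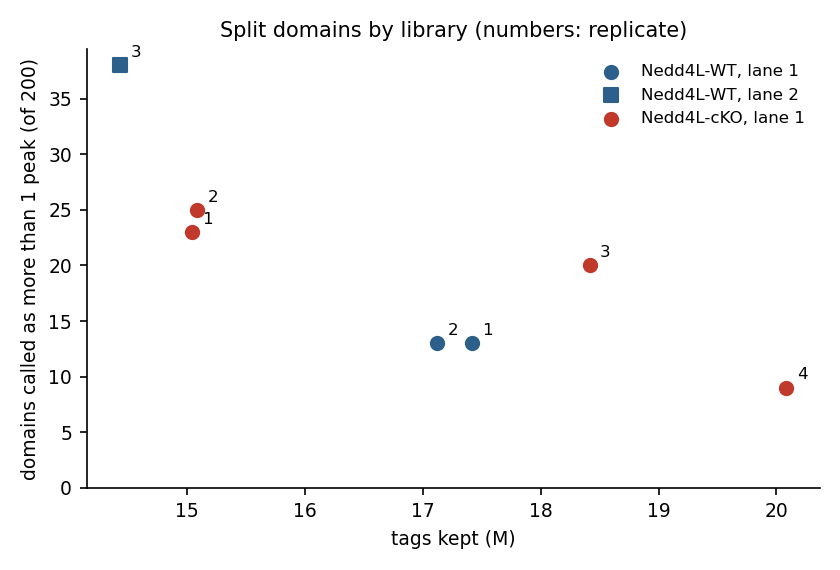
Number of the 200 domains called as more than 1 peak in each library, against tags kept (in M), with the genotype as colour, the lane as symbol and the replicate number beside each point. The count runs from 9 in the library with the most tags to 38 in the lane 2 library with the fewest, and the 2 genotypes overlap.

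Most domains lay at promoters. A coding start site was within 1 kb of 136 of 200 domains, 68.0% (95% Wilson interval 61.2 to 74.1), against 23.9% of all regions. With a window of 2.5 kb the shares were 69.0% and 25.9%. A longer region is more likely to touch a start site by its length alone, and when only the midpoint was asked to lie within 1 kb of a start site, 46.5% of domains and 22.8% of all regions did. The next 200 longest regions had 62.5% at promoters. Of the 136, 122 covered the promoter of 1 coding gene, 13 those of 2 and 1 those of 3, which gave 151 genes. A further 27 domains lay inside the span of a coding gene away from its start, and 37 lay outside coding genes, at a median of 21997 bp from the nearest (1020 to 321182 bp). Median lengths were 3099.5 bp at promoters, 3177 bp inside genes and 3026 bp outside them.

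The domains reached further into the gene than away from it. In 120 domains that held the start site of 1 coding gene, the median extent was 1061.5 bp upstream and 2036 bp downstream (interquartile ranges 644.5 to 1703.25 and 1482 to 2531.75 bp), and 87 of them (72.5%) were longer on the downstream side. In 10645 other promoter regions the medians were 515 and 731 bp, and 69.4% were longer downstream. Where a gene had more than 1 start site in the region, the site nearest the midpoint of the region was used, in both classes. The share that leaned into the gene was close in the 2 classes, and the difference between them was not tested.

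**Figure D3:**
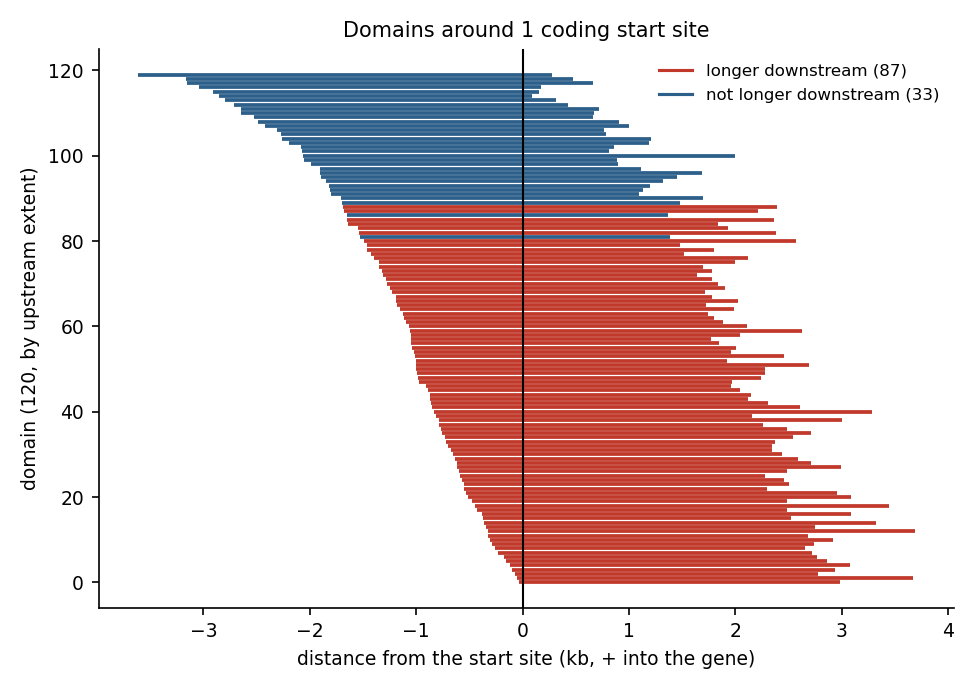
Extent of 120 domains around the start site of their 1 coding gene, in kb, with the direction of transcription to the right; each line runs from the median start to the median end of the longest peak over 7 libraries. Of the 120 lines, 87 (red) reach further into the gene and 33 (blue) do not.

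Immediate early genes, which are switched on within minutes of a stimulus without new protein synthesis, had the highest share of domains among the lists used. All 37 of the list had an accessible promoter in all 7 libraries, and 6 (16.2%) lay in a domain. For comparison, 151 of 20232 coding genes (0.746%) had a domain at the start site, or 1.17% of the 12958 open in all 7 libraries. Length selected the domains and the lists were put together with earlier results of these data known, so these shares are counts and not evidence of a theme. The 6 were Gadd45g, a stress-induced growth regulator (3877 bp), Klf10, a TGF-β-inducible factor (3586 bp), Myc (3496 bp), Egr2, a zinc finger factor (3463 bp), Nr4a3, an orphan nuclear receptor (3338 bp), and Zfp36l1, an mRNA decay factor (3064 bp).

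Klf10, at chr15:38298960-38302628, had lengths of 3650, 3584, 3513 and 3586 bp in Nedd4L-cKO and 3520, 3648 and 3659 bp in Nedd4L-WT. Its pileup was above that of 99.7% of peaks in each library. Myc, at chr15:61983382-61988285, was less even, with 3496, 3299, 3530 and 3533 bp in Nedd4L-cKO and 4629, 3027 and 1143 bp in Nedd4L-WT. The longest and the shortest value were both in Nedd4L-WT. Nr4a3, at chr4:48042614-48046073, had 3083, 1312, 3456 and 3428 bp in Nedd4L-cKO and 3372, 3338 and 1195 bp in Nedd4L-WT, with 1 short library in each genotype. Egr2, at chr10:67535289-67538863, ranged from 3067 to 3557 bp, Zfp36l1, at chr12:80112809-80116009, from 1523 to 3173 bp, and Gadd45g, at chr13:51845169-51849414, from 2605 to 4228 bp.

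Among 58 other transcription factor genes with a start site, 6 (10.3%) lay in a domain. Nr1d1, Dbp and Bhlhe40, parts of the circadian clock, had 3466, 3696 and 3388 bp. Foxo1, a factor that keeps stem cells resting, had 2931 bp, and Tshz1 and Tshz3, teashirt zinc finger factors, had 3455 and 3352 bp. Nr1d1, at chr11:98772630-98776150, was among the evenest, with 3464, 3466, 3479 and 3492 bp in Nedd4L-cKO and 3418, 3487 and 3444 bp in Nedd4L-WT and 3 narrow blocks in every library. Dbp, at chr7:45704112-45708232, had 2031, 3985, 3684 and 3696 bp in Nedd4L-cKO and 3836, 3832 and 1488 bp in Nedd4L-WT, with 1 split library in each genotype. Foxo1, at chr3:52266731-52270835, ranged from 1491 to 3525 bp.

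Of 28 genes of MuSC identity and quiescence, 27 were open in all 7 libraries and 2 (7.14%) lay in a domain, Notch1 and Six4, a homeobox factor of the myogenic programme. Six4, at chr12:73110182-73113605, had lengths of 3398, 1590, 3219 and 3161 bp in Nedd4L-cKO and 3286, 3251 and 1465 bp in Nedd4L-WT. None of the 8 MuSC markers named above had a domain. Of 31 housekeeping genes, 30 were open in all 7 libraries and 0 had a domain at the start site. The other was Ywhaz, the gene of an adaptor protein for phosphorylated partners, whose start site, as placed here, lay in no region of any library while a domain of 2902 bp lay within the gene (chr15:36791697-36794704, 2868 to 2996 bp over the libraries). Domains at start sites also numbered 0 for endothelial (12 genes), immune (12), fibro-adipogenic and tendon (10), pericyte, smooth muscle and glial (9) and myofiber (16) genes. Over all coding genes open in all 7 libraries, the share with a domain at the start site was 1.17%. A count of 0 in lists this short is near that share and does not set these genes apart.

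Some further groups were picked after their values were seen. Receptors of Wnt ligands were there with Fzd8 (3135 bp), Fzd5 (2912 bp) and Fzd7 (2879 bp). Feedback inhibitors of signalling were Socs2 on cytokine receptors (3793 bp), Spry2 (3046 bp), Dusp4 on MAP kinases (2958 bp) and Smad6 on BMP signals (2893 bp). Genes of the extracellular matrix, beside Col5a1, were Ltbp3 (3448 bp), the protease genes Adamts1 (3076 bp) and Mmp14 (2996 bp), and Lox, a collagen cross-linking enzyme (2997 bp). Igf1r, the receptor for insulin-like growth factor, had 3262 bp.

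The domains ranked high among peaks in pileup and low in fold over the local background. The median pileup percentile, the place of the peak's pileup among all autosomal peaks of its library, was 92.5 (range 40.5 to 99.9993), and 128 of 200 were above 90. All regions had a median of 60.8 and other promoter regions 85.6. The fold enrichment, pileup over the local background, had a median of 2.78 in the domains and 3.98 over all regions, and its median percentile was 11.6, with 198 of 200 domains below 50. The caller estimates the background over windows of up to 10000 bp, which here include much of the domain itself. A longer domain fills more of such a window, so the fold is not independent of the length that chose the domains. The part of the background window in the low fold was not tested. The next 200 longest regions had medians of 89.8 for the pileup percentile and 23.6 for the fold percentile.

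**Figure D4:**
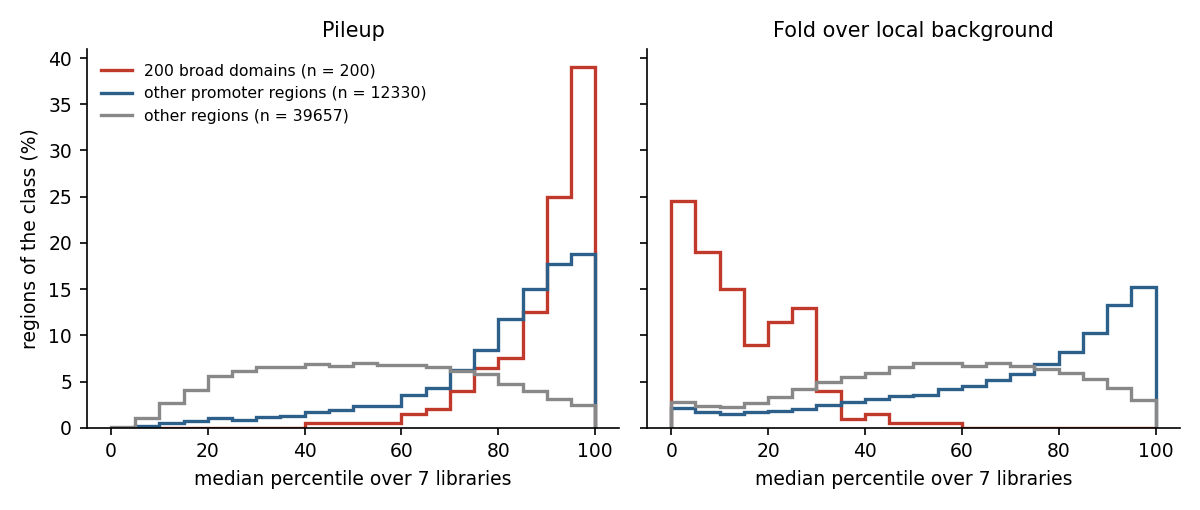
Distribution of the median percentile over 7 libraries of pileup (left) and of fold over the local background (right), as a percentage of the regions of each class in bins of 5 percentiles, for the 200 domains (red), 12330 other promoter regions (blue) and 39657 other regions (grey). The domains crowd at the top for pileup (median 92.5) and at the bottom for fold (median 11.6).

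The highest pileups after the ribosomal RNA repeat were at Nr1d1 and within Ralgds, a guanine nucleotide exchange factor for Ral. At Nr1d1 the pileups were 95.4, 85.3, 92.2 and 105.8 in Nedd4L-cKO and 89.2, 94.4 and 87.3 in Nedd4L-WT, and every library was above the 99.9 percentile. At Ralgds (chr2:28523658-28526706) they were 94.4, 83.8, 89.1 and 95.6 in Nedd4L-cKO and 90.6, 89.0 and 83.8 in Nedd4L-WT. Pileup is not scaled for depth, and the deepest library gave the highest value at both. The lowest were near Nrip1 (chr16:76406390-76409763, median 13.1, percentile 40.5), near Ccdc186 (chr19:56774229-56777606, 15.8, percentile 49.4) and within Foxp2 (chr6:15184106-15187303, 16.3, percentile 52.6). Eomes, a T-box factor, also had a wide but shallow domain, with a median length of 3046 bp and a percentile of 57.8. The highest fold, 3.94, was in a domain near Gm2244 (chr14:19415718-19419020). Neither it nor the other domains outside coding genes were checked against a list of artifact-prone regions.

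A broad peak is built of narrow blocks, stretches that pass a stricter threshold, joined over weaker ones. The domains had a median of 2 narrow blocks (range 1 to 5), with 18 domains at 1, 104 at 2, 75 at 3 and 3 at 4 or more, and 91.0% had at least 2, against 7.1% of all regions and 7.70% of other promoter regions. A longer peak has room for more blocks. Per kb the order was the other way, with 0.691 blocks per kb in the domains and 1.08 over all regions, and narrow blocks filled 73.7% of a domain's length against 95.7% of all regions. The next 200 longest regions were close to the domains, with 84.5% at 2 or more blocks, 0.743 blocks per kb and 76.9% of the length filled. The most blocks were at Hcfc1r1/Thoc6/Tnfrsf12a, with 5, 5, 5 and 3 in Nedd4L-cKO and 5, 4 and 4 in Nedd4L-WT, followed by Cav1 and the domain within Pakap (medians of 4). The longest domains with 1 block were the ribosomal RNA repeat, with 1 in every library, Ptprg, a receptor tyrosine phosphatase gene, and the domain within Clmp, a cell adhesion gene.

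The longest domains away from start sites were the ribosomal RNA repeat and those within Plec and Aopep. A few others were picked after their values were seen. Within Kdm6b, a histone demethylase gene, a domain had a median of 3398 bp. Near Nfkbia, the inhibitor of NF-κB, one had 3352 bp, and those near Klf9 and Klf6, Krüppel-like factors, had 2977 and 2971 bp. The nearest coding gene is given as a place only.

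The domains as a class were compared between the genotypes first. The median domain length was 3081 ± 52.9 bp in Nedd4L-cKO (SD, n = 4) and 3072 ± 69.8 bp in Nedd4L-WT (SD, n = 3). The summed length was 614 ± 21.9 kb and 615 ± 28.7 kb, the median pileup percentile 92.7 ± 0.593 and 92.6 ± 0.354, and the mean number of narrow blocks 2.32 ± 0.0359 and 2.30 ± 0.0454. All 4 differences between the genotype means were smaller than the SD within either genotype.

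Each region was tested by limma over all 52187 regions, with p-values adjusted by Benjamini-Hochberg. For length, 0 of 200 domains passed an adjusted p of 0.05, where 1 region in all did (0.00192%), and 2 domains had an unadjusted p under 0.05 (3.79% of all regions did). For pileup rank, 0 of 200 domains passed, as did 0% of all regions, and 1 domain had an unadjusted p under 0.05 (2.72% of all). For narrow blocks 0 domains passed, against 0.111% of all regions, and 0 had an unadjusted p under 0.05 (0.19% of all). The block counts took few values and were the same in all 7 libraries for 65.2% of regions. All 58 regions called on them had no spread within either genotype, so the fit had little to measure error by. The call depended on the fit, since 2 domains passed with the replicate block and 2 with lane 1 libraries only, and 4 without Nedd4L-WT replicate 2. The median difference in log2 length, cKO minus WT, was 0.0018 in the domains and 0.0052 over all regions. In normal scores of the pileup rank it was 0.017 in the domains and -0.0013 over all regions, and 121 of 200 domains (60.5%) were higher in Nedd4L-cKO, against 49.6% of all regions. Without Nedd4L-WT replicate 3, the library of the other lane, the median of the domains turned to -0.011. The length ratio, cKO over WT, was between 0.9 and 1.1 in 143 domains and ranged from 0.497 to 1.51. The median SE of the log2 length difference was 0.092. The domains at the 2 ends of the ratio, near Spg20 (0.497) and at Ptprg (1.51), did not pass either (limma adjusted p = 0.999 each). A domain without a call can thus have changed in length, by a small or a large amount.

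**Figure D5:**
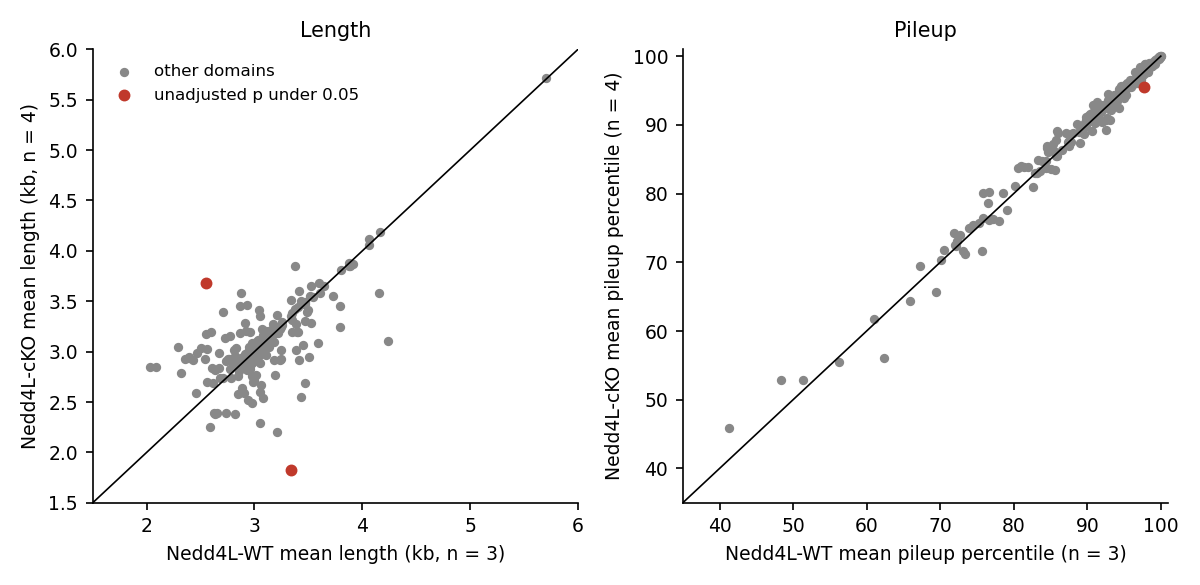
Mean over Nedd4L-WT libraries (n = 3) against mean over Nedd4L-cKO libraries (n = 4) for each of the 200 domains, as length in kb (left) and as pileup percentile (right), with the line of equality and the domains of unadjusted limma p under 0.05 in red. Pileup percentiles lie along the line, lengths scatter around it on both sides, and no domain passed after adjustment.

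The libraries of the genotypes did not overlap in length at 7 domains longer in Nedd4L-cKO (2.7% of all regions were so) and 8 shorter (1.95% of all). In pileup rank there were 5 higher (1.82% of all) and 2 lower (1.77% of all). In narrow blocks there were 0 in either direction, with 0.0498% and 0.092% of all regions. Some are named here, picked after their values were seen, and none had an adjusted p under 0.05. Among those shorter in Nedd4L-cKO, the length ratio was 0.709 at Cdk6, 0.807 at Dusp4, 0.899 at Nptx1 and 0.974 at Nfil3. Among those longer, it was 1.34 at Ciao2a/Snx1, 1.02 at Map4k4 and at Sync, and 1.03 at Traf3. The SD of length was 820 bp in Nedd4L-cKO at Cdk6 and 1068 bp in Nedd4L-WT at Ciao2a/Snx1.

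The lowest p for a shorter domain was near Spg20 (chr3:55095973-55099404), with 3362, 1264, 1213 and 1476 bp in Nedd4L-cKO and 3395, 3288 and 3343 bp in Nedd4L-WT. In 3 of the 4 cKO libraries it was in more than 1 peak. The log2 difference was -1.01 ± 0.36 (SE, limma adjusted p = 0.999). A domain near Ak4 (chr4:101354605-101357716), over 2 noncoding genes, came next, with 2700 ± 133 bp in Nedd4L-cKO (SD, n = 4) and 2983 ± 112 bp in Nedd4L-WT (SD, n = 3), and its libraries did not overlap (limma adjusted p = 0.999). The lowest p for a longer domain was at Ptprg (chr14:11552581-11556722), with 3678, 3365, 3588 and 4074 bp in Nedd4L-cKO and 3762, 2007 and 1895 bp in Nedd4L-WT. The log2 difference was 0.60 ± 0.25 (SE, limma adjusted p = 0.999). Vav2 (chr2:27425192-27428336) followed, with 3033 ± 132 bp in Nedd4L-cKO (SD, n = 4) and 2505 ± 541 bp in Nedd4L-WT (SD, n = 3, limma adjusted p = 0.999). Near Spg20 and at Ptprg the libraries of 1 genotype were themselves divided between short and long peaks.

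For pileup rank, the lowest p among the domains was in a domain inside Nedd4l itself, the gene targeted in these mice. This domain lay at chr18:65082617-65085765 and had a median length of 2925 bp. Its pileup percentiles were 96.1, 93.9, 95.4 and 96.6 in Nedd4L-cKO and 98.4, 97.3 and 97.6 in Nedd4L-WT, so every cKO library was below every WT library. The difference in normal scores of the rank was -0.33 ± 0.10 (SE, limma unadjusted p = 0.0133), and it did not pass adjustment over all regions (limma adjusted p = 1.00). Its lengths, 2960, 3096, 2987 and 2892 bp in Nedd4L-cKO and 1736, 2925 and 2747 bp in Nedd4L-WT, overlapped. Whether the domain covers the floxed exon was not analysed here. The next lowest p was in a domain near Tex44 (chr1:86469966-86472948), with percentiles of 89.2 ± 1.24 in Nedd4L-cKO (SD, n = 4) and 92.5 ± 1.30 in Nedd4L-WT (SD, n = 3), and there the libraries of the genotypes overlapped. The other domain with every cKO library below every WT library was at Smad6 (chr9:64020297-64023278), with 90.7 ± 1.22 in Nedd4L-cKO (SD, n = 4) and 92.6 ± 0.438 in Nedd4L-WT (SD, n = 3). The domains with the lowest p for a higher rank were near Cdon (chr9:35359791-35362979), with 99.01 ± 0.277 in Nedd4L-cKO (SD, n = 4) and 98.4 ± 0.291 in Nedd4L-WT (SD, n = 3), and near Scaf8 (chr17:3081629-3084886), with 98.5 ± 0.705 and 97.4 ± 0.199. None of these 4 passed adjustment over all regions (limma adjusted p = 1.00 each).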

How the data were processed

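ATAC-seq of 5000 sorted MuSCs per library was deposited as broad peak calls on mm10. Trimmomatic 0.39, BWA 0.7.17, SAMtools and Picard 2.26.3 stand in the submitters' processing notes. Per the file headers, the authors called peaks in each library separately with MACS2 2.2.7.1 in broad mode, with no control library, tags of 151 bp and a local background window of 10000 bp. The deposited values are the pileup signal (mean extended-tag coverage, not scaled for depth), the fold over local background (a ratio), -log10 p and -log10 q values, and a display score, which was not used. Peak pileup and fold are means over the peak. A narrow block is a block longer than 1 bp in the gapped peak list, which also counts 1 bp end markers.

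Coding start sites came from RefSeq promoters on GRCm38.p6 (16457 of 20665 autosomal coding genes), and for 3775 more genes from the outer RefSeq end with the GENCODE strand, 20232 in all. A promoter domain overlapped 1000 bp on either side of a start site. Peaks identical in coordinates and pileup between libraries numbered 0, so all 7 were counted as separate libraries.

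Genotypes were compared with limma 3.58.1 (lmFit, eBayes) in R 4.3.3 on log2 length, on normal scores of the within-library pileup rank and on log2(narrow blocks + 1), over 52187 regions with all 7 libraries. How well the fit recovers a shift in lengths that fall into a long and a short class, or in block counts with little spread, was not tested. Nothing in the labels says that libraries came from separate mice, though the study's methods count mice, so p-values measure the spread between libraries. Python 3.11.15, pandas 2.3.3, scipy 1.17.1 and matplotlib 3.10.9 were used. Intervals are Wilson 95% intervals. The domains and the gene lists were chosen with earlier results of these data known.

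Named loci are the 12 longest domains, the 3 on each side of the length limit, the 3 highest and lowest in pileup percentile and in narrow blocks (ties by length), the 3 longest away from start sites, the 2 with the lowest p in each direction for length and for pileup rank, and every domain at a listed gene. All other named loci were picked after their values were seen, also where the text does not say so in place. Alternatives are described in the closing section.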

Additional observations from a re-analysis of the deposited data

Results flagged for a closer look

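Each value below stood apart from the other 3 Nedd4L-cKO libraries, with a gap to the nearest above Dixon's 95% critical value for 4 samples. Of 32 such sets of 4 libraries examined, 4 were marked, and chance marks about 1 in 20. The 3 Nedd4L-WT libraries were too few for the rule.

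The median pileup percentile of the 200 domains was 93.6 in Nedd4L-cKO replicate 4, the library with the most tags, against 92.3 to 92.5 in the other 3. The domain at Notch1 was 2315 bp long in Nedd4L-cKO replicate 2, against 3950 to 4248 bp, and Nedd4L-WT replicate 3 had a similar 2313 bp. The domain at Tagln2 was 3721 bp long in Nedd4L-cKO replicate 2, against 3914 to 3937 bp. The pileup percentile of the ribosomal RNA repeat was 99.9978 in Nedd4L-cKO replicate 3, against 99.9993 to 99.9994, a step between the topmost peaks of a library.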

How the results depend on the processing

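The set of domains was recomputed under 12 alternatives. Thresholds of 3000 and 5000 bp, met by 135 and 1 regions, fell back on the same 200 domains. They could not change the set or its promoter share, though both are counted here. Only 114 of the 200 were among the 200 longest when the shortest of the 7 lengths replaced the median. Summed peak lengths kept 174, peaks with a -log10 q of at least 5 kept 159, and leaving out 1 library kept 185 to 188. The promoter share ran from 64.5% to 71.0% in 14 alternatives, including 65.0% to 69.5% with 1 library left out, and was 46.5% for the midpoint of the domain, an alternative added after seeing the data, as were the 135 domains of at least 3000 bp (68.9%) and the pileup percentile without the ribosomal RNA repeat (92.5). The median pileup percentile was 90.1 among the regions called in all 7 libraries and 11.6 for fold. The median of narrow blocks was 4 with the end markers counted and 0.691 per kb.

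For length and pileup rank, 0 domains passed in each of 13 and 12 alternatives, leaving out 1 library included (0 to 0). Lane 1 libraries only and leaving out Nedd4L-WT replicate 3 were the same fit, counted under both names. The median log2 length difference of the domains lay between -0.010 and 0.0065 over the fits on log2 length. On normal scores of the length rank, another scale, the median difference was -0.018. For narrow blocks, 2 domains passed with the replicate block and 2 with lane 1 libraries only, and 0 to 4 with 1 library left out (4 without Nedd4L-WT replicate 2). These fits had fewer libraries or residual degrees of freedom for counts with little spread. Same-numbered libraries did not deviate together: the correlations of their deviations were -0.08, 0.03 and -0.08 for length and -0.22, 0.10 and -0.24 for pileup rank, and 1 of 6 libraries correlated best with its own number in each. The replicate block left the count for length and for pileup rank at 0. Lane 2 held 1 library, so no value within it could be had, and depth was not varied beyond the covariate.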

Other observations

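The X chromosome was left out of the ranking. Of its 1041 regions called in all 7 libraries, 6 had a median length of at least 2860 bp, the length of the last domain kept, and the longest had 3301 bp. In all, 23 of the 200 domains had a median pileup percentile above 99. Vim, the gene of the intermediate filament vimentin, had a domain of 2985 bp at the 98.2 percentile, and Erbb4, a receptor tyrosine kinase gene, one of 3083 bp at the 64.6 percentile. Both were picked after their values were seen.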
